A study of Mus musculus with 6 samples.

Results

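A set of 48 mouse genes for ribosome biogenesis and RNA polymerase I was followed in splenic CD3+ T cells, out of 49671 genes in the deposited tables. The members were found by gene symbol, and all 48 had a row. RNA polymerase I transcribes the long precursor of ribosomal RNA in the nucleolus. Small nucleolar ribonucleoproteins (snoRNPs) then modify that precursor, the small subunit processome folds and cleaves it, and separate sets of factors mature the 40S and 60S particles on their way to the cytoplasm. Resting T cells are small and make few ribosomes, and activation of their antigen receptor is known to be followed by growth, enlargement of nucleoli and division.

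The stimulated group held 3 libraries from CD3+ T cells cultured for 48 h on anti-CD3 bound to the plate (1 µg/ml), with anti-CD28 in solution (10 µg/ml), antibodies that trigger the antigen receptor and its costimulatory receptor. The unstimulated group held 3 libraries from cells lysed at once after column enrichment, so culture and stimulation cannot be told apart. All 6 libraries came from female F1 mice of C57BL/6 (mus) mothers, heterozygous for a deletion of Xist, and castaneus (cast) fathers, a cross made to skew X inactivation. The ages of the mice are not given. Ribosomal RNA was depleted, so the product of polymerase I itself was not measured.

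Allelic reads, which could be assigned to mus or cast, numbered from 14.9 M to 20.2 M per stimulated library and from 9.61 M to 11.9 M per unstimulated library. T cell markers summed to 1733 to 1801 RPKM (reads per kilobase of gene, scaled to sequencing depth) in stimulated libraries and 1780 to 2189 RPKM in unstimulated libraries. Of these 16 markers 2 rose, 8 fell and 6 did not pass, where 31.2% of all 13288 genes tested rose and 48.9% fell. All 12 myeloid markers fell, with sums of 2.5 to 4.1 RPKM in stimulated and 1132 to 3374 RPKM in unstimulated libraries. Of 12 B cell markers 11 fell (sums of 70.4 to 125 RPKM stimulated, 1964 to 3394 RPKM unstimulated). Of 8 NK cell markers 7 fell and 1, Gzma, rose. The sums over all 8 were 251 to 272 RPKM stimulated and 432 to 561 RPKM unstimulated. Of 10 erythroid and platelet markers 9 were tested and 8 fell (sums of 2.3 to 15.4 RPKM stimulated, 88.1 to 1409 RPKM unstimulated). All 26 cell cycle genes rose, with sums of 1438 to 1450 RPKM in stimulated libraries, against 209, 216 and 470 RPKM in unstimulated replicates 1, 2 and 3. The markers moved with the comparison made throughout, and their part in the results was not tested; fewer cells of a type and less RNA per cell cannot be told apart in bulk samples. None of the B cell, NK cell, T cell or cell cycle genes was at 0 in any library. Of the myeloid markers 4, 1 and 1 were at 0 in stimulated replicates 1, 2 and 3, and of the erythroid and platelet markers 2, 1 and 0.

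The summed level of the 48 genes was 1917.1, 1849.7 and 1710.4 RPKM in the stimulated libraries, against 698, 778 and 825 RPKM in the unstimulated libraries. The 2 groups did not overlap, and the ratio of their means was 2.38 (1826 ± 105 RPKM stimulated, 767 ± 63.9 RPKM unstimulated, SD, n = 3 each). The same genes took 0.757%, 0.730% and 0.662% of allelic reads in stimulated libraries, against 0.322%, 0.336% and 0.333% in unstimulated libraries. A sum gives most weight to the highest genes, and the ratio taken from the mean log2(RPKM + 1) over the members was 1.98.

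Nearly all of these genes rose. Of the 47 that were tested with limma, 45 were higher after stimulation (Benjamini-Hochberg adjusted p below 0.05) and 0 were lower, where 31.2% of all 13288 genes tested were higher and 48.9% were lower. All 47 estimates were above 0, and 0 were lower at an unadjusted p below 0.05. On summed allelic counts, edgeR and DESeq2 each gave 46 higher and 0 lower. Over all genes tested on those counts, edgeR gave 5378 higher and 5646 lower, and DESeq2 5206 higher and 5642 lower. The groups did not overlap for 46 of the 47, against 32.7% of all genes tested with stimulated libraries higher throughout. A log2 fold change of at least 1 on the log2(RPKM + 1) scale, in addition to the call, was reached by 24 members and by 12.4% of all genes tested. The median log2 fold change of the 47 was 1.00, with a range of 0.15 to 1.85, beside a median of -0.24 over all genes tested. That overall median was 0.02 after median centring and 0.04 after quantile normalisation, and the 45 calls remained under both.

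**Figure D1:**
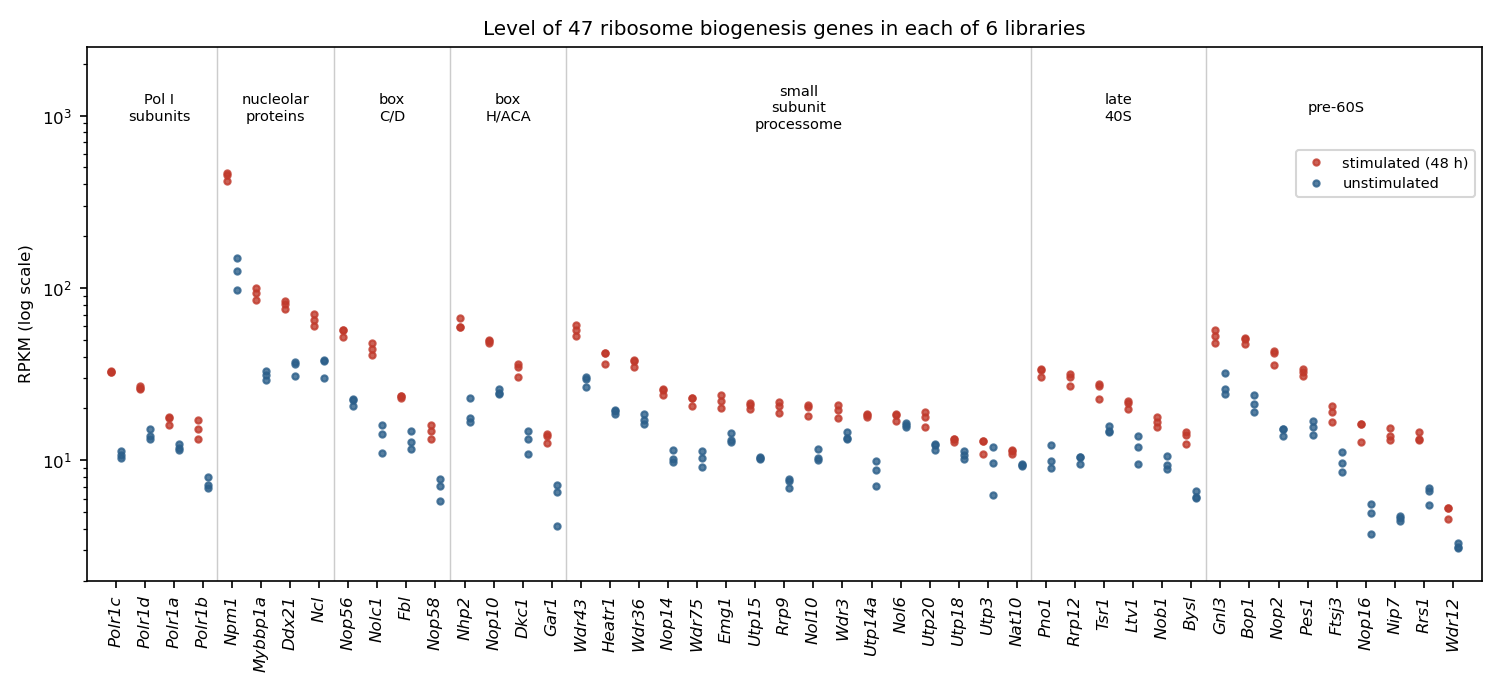
RPKM (log axis) of the 47 tested genes by role, with 1 point per library, 3 stimulated libraries in red and 3 unstimulated libraries in blue. Red points lie above blue points for 46 genes, and Utp3 is the exception.

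Among the members, the change bore little relation to the starting level. Across the 47 genes the unstimulated log2(RPKM + 1) and the log2 fold change had a Pearson r of 0.234 and a Spearman rho of 0.097, which are descriptions across genes of the same 6 libraries. The ratio of mean RPKM reached 3 for 7 genes, 2 for 27 genes and 1.5 for 40 genes. These ratios were not counted over all genes tested. Within the stimulated group replicate 3 held the lowest value for 42 of 47 genes and replicate 1 the highest for 36. Within the unstimulated group replicate 1 held the lowest value for 30 genes and replicate 3 the highest for 26. These orders were not counted over all genes. Summed RPKM of all genes was 352606, 346389 and 345047 in stimulated replicates 1, 2 and 3. It was 330810, 341971 and 337203 in unstimulated replicates 1, 2 and 3. Unstimulated replicate 3 had the highest sums of cell cycle, B cell, NK cell, myeloid, and erythroid and platelet markers. It had the lowest T cell marker sum. The part of these markers in the orders was not tested.

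All 4 subunits of RNA polymerase I in the set rose, with a median log2 fold change of 0.91. Polr1c, a subunit shared with polymerase III (chr17:46243920-46248054, minus strand, mm10), had 32.7, 33.1 and 32.6 RPKM in stimulated libraries, against 10.7, 10.3 and 11.4 RPKM in unstimulated libraries. The spread within each group was small beside the gap between the groups (log2 fold change 1.52 ± 0.06 SE, limma adjusted p = 1.99e-06). Polr1a, the largest and catalytic subunit, changed least, with 17.8, 17.6 and 16.1 RPKM stimulated and 11.8, 12.5 and 11.5 RPKM unstimulated (0.49 ± 0.06, limma adjusted p = 0.000397). The groups still did not overlap for Polr1a. Polr1d, the other subunit shared with polymerase III, had 27.0, 26.2 and 26.0 RPKM stimulated and 13.8, 15.1 and 13.3 RPKM unstimulated. Polr1b, the second largest subunit, had means of 15.2 ± 1.9 RPKM stimulated and 7.36 ± 0.54 RPKM unstimulated (SD, n = 3 each).

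The 4 abundant nucleolar proteins rose, and they included the 4 highest levels of the set in stimulated cells. Npm1 encodes nucleophosmin, a histone and ribosome chaperone that forms the outer layer of the nucleolus (chr11:33152287-33163206, minus strand). It had 466, 451 and 420.0 RPKM in stimulated libraries, against 97.6, 126 and 149 RPKM in unstimulated libraries. Npm1 had the highest level in both groups and, on the log2(RPKM + 1) scale as deposited, the highest estimate of change (1.85 ± 0.15 SE, limma adjusted p = 4.37e-05). It did not lead under every scaling: after quantile normalisation it was 1.55 and Nop16 1.73, and on summed allelic reads it was 2.15 and Polr1c 2.36. The mouse genome carries processed pseudogenes of Npm1, and no source used here says how reads shared with them were counted. Mybbp1a, a nucleolar protein that binds Myb and takes part in pre-ribosomal RNA processing, had 99.995, 93.7 and 85.6 RPKM stimulated and 31.1, 29.2 and 32.9 RPKM unstimulated (1.55). Ncl encodes nucleolin, which binds nascent ribosomal RNA (chr1:86344719-86359400, minus strand). Its values were 70.6, 65.0 and 60.3 RPKM stimulated and 29.99, 37.8 and 38.3 RPKM unstimulated, the smallest change of the group (0.87 ± 0.11 SE, limma adjusted p = 0.000324). Ddx21, an RNA helicase of the nucleolus, had means of 80.1 ± 4.1 RPKM stimulated and 34.7 ± 3.5 RPKM unstimulated (SD, n = 3 each).

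All 4 box C/D genes rose (median log2 fold change 1.15). Box C/D snoRNPs methylate ribosomal RNA at sites chosen by their guide RNA. Nolc1 encodes Nopp140, a chaperone of snoRNPs (chr19:46075863-46085530, plus strand). It had 47.7, 43.9 and 41.0 RPKM in stimulated libraries and 11.03, 14.1 and 15.9 RPKM in unstimulated libraries (1.63 ± 0.13 SE, limma adjusted p = 3.91e-05). Fbl, fibrillarin, the methyltransferase itself, had 22.8, 23.5 and 23.5 RPKM stimulated and 11.7, 12.7 and 14.8 RPKM unstimulated (0.80). Both core proteins Nop56 and Nop58 were at least 2-fold higher by ratio of means, at 55.3 ± 2.9 RPKM stimulated against 22.0 ± 1.2 RPKM unstimulated for Nop56, and 14.7 ± 1.4 RPKM stimulated against 6.88 ± 1.02 RPKM unstimulated for Nop58.

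All 4 box H/ACA genes rose as well (median 1.21). These proteins form the snoRNPs that convert uridine to pseudouridine, and they are also found in telomerase. Nhp2, a core protein (chr11:51619735-51623714, plus strand), had 66.7, 59.4 and 59.0 RPKM in stimulated libraries and 17.7, 16.7 and 23.0 RPKM in unstimulated libraries (1.65 ± 0.12 SE, limma adjusted p = 2.81e-05). Dkc1, dyskerin, the pseudouridine synthase, had 36.2, 34.7 and 30.4 RPKM stimulated and 10.9, 13.4 and 14.8 RPKM unstimulated (1.32). Gar1, the fourth core protein, had means of 13.5 ± 0.9 RPKM stimulated and 5.94 ± 1.59 RPKM unstimulated (SD, n = 3 each). Nop10, the smallest of the complex, had 49.7, 49.3 and 48.0 RPKM stimulated and 24.1, 26.1 and 24.6 RPKM unstimulated (0.95, limma adjusted p = 8.19e-06). On summed allelic counts, where Nop10 had 15 to 25 reads per stimulated library and 12 to 16 per unstimulated library, its change was 0.16 with an edgeR adjusted p of 0.76 and 0.12 with a DESeq2 adjusted p of 0.864.

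The small subunit processome was the largest role group and had the widest range of changes. Of its 16 genes 14 rose and 2 did not pass, with a median of 0.89. Rrp9, the U3-specific protein of the processome (chr9:106475963-106485424, plus strand), had 21.7, 20.8 and 18.7 RPKM in stimulated libraries and 7.56, 7.83 and 6.87 RPKM in unstimulated libraries (1.34 ± 0.08 SE, limma adjusted p = 1.04e-05). Nop14, Wdr36, Wdr75, Heatr1 and Utp14a, structural or assembly components, had log2 fold changes of 1.18, 1.05, 1.05, 1.02 and 1.01. Wdr36 had 38.3, 37.5 and 34.8 RPKM stimulated and 16.2, 17.2 and 18.5 RPKM unstimulated. Utp14a had 17.9, 18.3 and 18.6 RPKM stimulated and 7.13, 8.82 and 9.87 RPKM unstimulated.

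At the other end of the processome lay Nat10, Utp18, Wdr3, Utp20, Utp3 and Nol6, each with a log2 fold change of 0.51 or less. Nat10, the acetyltransferase of small subunit ribosomal RNA, passed at 0.24 (11.2 ± 0.4 RPKM stimulated, 9.39 ± 0.11 RPKM unstimulated, SD, n = 3 each). Nol6, a processome scaffold protein (chr4:41114427-41124455, minus strand), had 18.2, 18.6 and 17.0 RPKM stimulated and 16.1, 16.5 and 15.6 RPKM unstimulated. The Nol6 groups did not overlap but its change missed the threshold (0.15 ± 0.06 SE, limma adjusted p = 0.0532). It passed after median centring (0.41, adjusted p = 0.00232), after quantile normalisation (adjusted p = 0.0473) and without stimulated replicate 3 (adjusted p = 0.0447). On summed allelic counts Nol6 also passed (0.565 with an edgeR adjusted p of 0.00012). Utp3, a processome protein also called SAS10 (chr5:88554462-88556090, plus strand), had 12.9, 10.9 and 12.9 RPKM stimulated and 6.30, 11.9 and 9.70 RPKM unstimulated. Its groups overlapped, because unstimulated replicate 2 lay above stimulated replicate 2 (0.40 ± 0.20 SE, limma adjusted p = 0.116). The unstimulated libraries decided its value: it was 0.17 without unstimulated replicate 1 (adjusted p = 0.244) and 0.58 without unstimulated replicate 2 (adjusted p = 0.0287). It passed after median centring (0.66, adjusted p = 0.0178) and quantile normalisation (0.56, adjusted p = 0.0442), and on summed allelic counts (1.11 with an edgeR adjusted p of 0.00169).

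All 6 factors of late 40S maturation rose (median 0.91). Pno1, a partner of the endonuclease that makes the final cut of small subunit ribosomal RNA (chr11:17203198-17211568, minus strand), had 33.7, 33.2 and 30.5 RPKM in stimulated libraries and 8.98, 9.86 and 12.2 RPKM in unstimulated libraries (1.57 ± 0.11 SE, limma adjusted p = 2.23e-05). That endonuclease, Nob1, had means of 16.6 ± 1.1 RPKM stimulated and 9.61 ± 0.81 RPKM unstimulated (0.73). Rrp12, an export and processing factor (chr19:41862851-41896173, minus strand), had 31.6, 30.5 and 26.8 RPKM stimulated and 10.4, 10.4 and 9.56 RPKM unstimulated (1.46). Tsr1, a GTPase-like factor of cytoplasmic 40S particles, changed about as much as Nob1, with 27.5, 27.0 and 22.8 RPKM stimulated and 14.6, 15.7 and 14.9 RPKM unstimulated (0.73). Ltv1 and Bysl, which leave the particle before Nob1 acts, had log2 fold changes of 0.81 and 1.01.

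Of 10 genes for pre-60S assembly 9 were tested, and all 9 rose (median 1.02). Nop16, a nucleolar assembly factor (chr13:54584185-54590090, minus strand), had 16.3, 16.3 and 12.8 RPKM in stimulated libraries and 3.74, 4.96 and 5.55 RPKM in unstimulated libraries (1.495 ± 0.15 SE, limma adjusted p = 0.000101). Nip7, which acts in early large subunit assembly, had 15.3, 13.7 and 13.1 RPKM stimulated and 4.75, 4.45 and 4.65 RPKM unstimulated (1.42). Nop2, a methyltransferase of large subunit ribosomal RNA, had 42.8, 42.1 and 35.8 RPKM stimulated and 13.8, 15.3 and 15.1 RPKM unstimulated (1.39). Ftsj3, another methyltransferase-family factor, had 20.7, 19.0 and 16.7 RPKM stimulated and 8.54, 11.1 and 9.70 RPKM unstimulated (0.88). Gnl3, nucleostemin, a nucleolar GTPase, had means of 52.3 ± 4.5 RPKM stimulated and 27.4 ± 4.1 RPKM unstimulated (SD, n = 3 each).

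The PeBoW complex, made of Pes1, Bop1 and Wdr12, showed unequal levels among its partners. Bop1 had means of 49.9 ± 2.1 RPKM stimulated and 21.4 ± 2.4 RPKM unstimulated (SD, n = 3 each). Pes1 had 33.6, 32.5 and 30.9 RPKM stimulated and 14.0, 15.6 and 16.9 RPKM unstimulated. Wdr12 had the lowest level of the 47 tested members in both groups, with 5.28, 5.28 and 4.54 RPKM stimulated and 3.11, 3.13 and 3.32 RPKM unstimulated (0.53 ± 0.08 SE, limma adjusted p = 0.000937). Wdr74, which acts in pre-60S remodelling, was not tested. It was listed at 0.072, 0.000 and 0.014 RPKM in stimulated and 0.025, 0.032 and 0.027 RPKM in unstimulated libraries, below the minimum of 1 RPKM in 3 libraries. No source used here says how reads that fit several places were counted, so a value near 0 does not show that Wdr74 was not expressed.

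**Figure D2:**
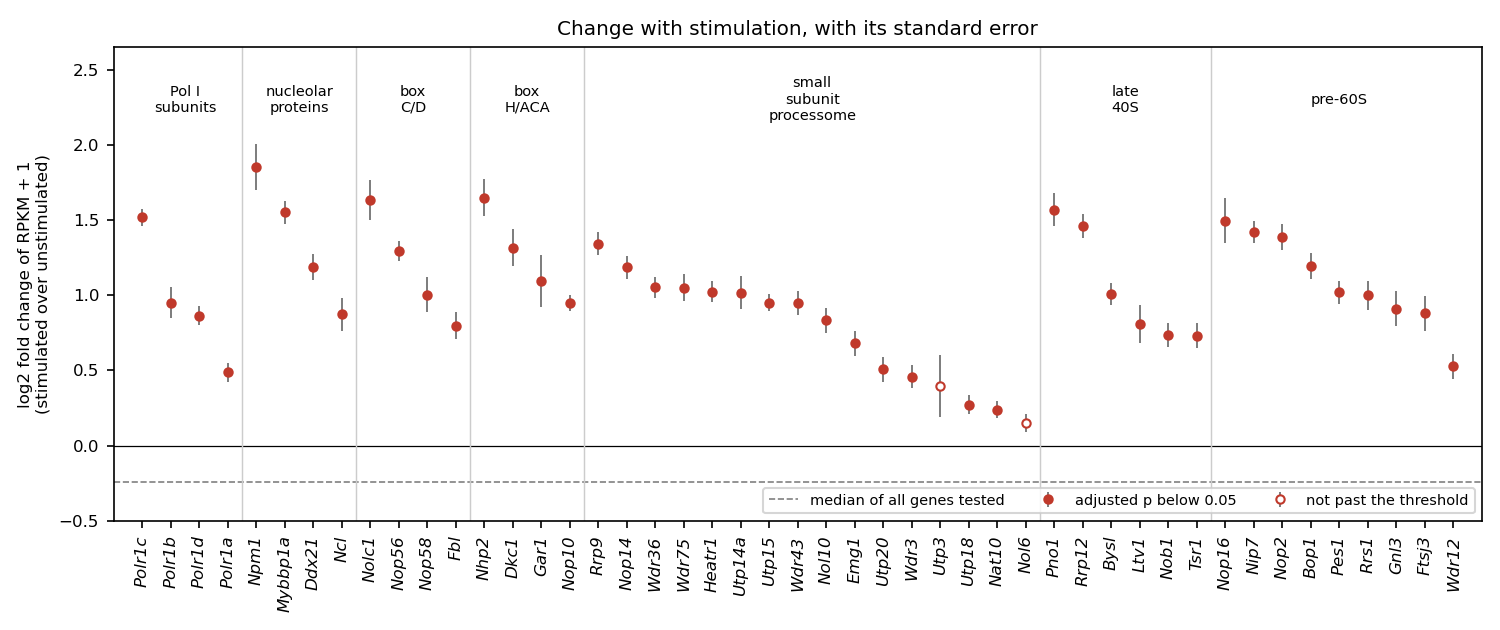
Log2 fold change of RPKM + 1 (stimulated over unstimulated) with its standard error for the 47 tested genes, ordered by role and size. Filled points passed the limma test and the open points, Utp3 and Nol6, did not; the dashed line is the median of all genes tested, -0.24.

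Other genes of the pathway moved less evenly. Of the other polymerase I machinery 6 of 11 genes rose and 4 fell (median log2 fold change 0.19), where 31.2% of all genes tested rose and 48.9% fell. Rrn3, the initiation factor TIF-IA that recruits the polymerase, rose most in that list, at 29.4 ± 0.1 RPKM stimulated and 13.9 ± 0.5 RPKM unstimulated (1.03, limma adjusted p = 5.45e-06). Taf1a, a subunit of the promoter selectivity factor, fell, at 2.71 ± 0.23 RPKM stimulated and 4.77 ± 0.16 RPKM unstimulated (-0.64, limma adjusted p = 0.000308). Ubtf, the upstream binding factor, was the gene that did not pass, with 24.5 ± 1.3 RPKM stimulated and 23.5 ± 0.7 RPKM unstimulated (0.06, limma adjusted p = 0.406, SD and n = 3 each throughout).

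All 5 subunits shared by the nuclear polymerases rose (median 0.82), as did 6 of 7 subunits specific to polymerase II (0.73), of which the largest subunit, Polr2a, did not pass (-0.08). Of 10 polymerase III subunits 4 rose and 2 fell (0.15), beside 31.2% and 48.9% of all genes tested. Further processome and 40S factors rose in 20 of 25 cases with 0 lower (0.64), led by Noc4l (1.40). Further 60S factors rose in 28 of 40 cases and fell in 4 (0.50), with Mrto4 highest (1.68) and Zfp622 lowest (-0.83). Further snoRNP factors rose in 9 of 10 cases with 0 lower (0.86), led by Ruvbl2, an ATPase of snoRNP assembly (2.13). Over the 86 further polymerase I, subunit assembly and snoRNP genes together, 63 rose and 8 fell, with a median of 0.56. The count of 8 was 2 after median centring and 1 after quantile normalisation.

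Proteins of the finished ribosomes of the cytosol and of the mitochondrion were read beside these factors. Of 80 tested genes for cytosolic ribosomal proteins 37 rose and 8 fell (median log2 fold change 0.19), where 31.2% of all genes tested rose and 48.9% fell. Rps27l had the highest estimate, at 103.4 ± 5.4 RPKM stimulated and 24.3 ± 9.1 RPKM unstimulated (2.10), and Rps27 the lowest, at 271 ± 12 RPKM stimulated and 653 ± 110 RPKM unstimulated (-1.25, SD, n = 3 each). Of 77 tested genes for mitochondrial ribosomal proteins 73 rose and 1, Mrpl24, fell (median 0.88). Cytosolic ribosomal protein genes have many processed pseudogenes, so reads could have been split between copies.

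Promoter sequence was read for the 41 members with an entry in RefSeq's table for GRCm38.p6, which spans 250 bases before to 50 after each start. Npm1, Bop1, Wdr36, Nol6, Fbl, Rrs1 and Rrp12 were not in it. The hexamer CACGTG, an E-box that reads the same on both strands, lay in a window of 9 of the 41 members (22.0%), against 8.09% of 27025 genes in the table and 12.1% of genes tested. It lay in a window of 11.5% of genes that rose and 11.9% of genes that fell. The 9 members with the hexamer had a median log2 fold change of 0.95 and the 31 tested members with a window but without it 1.00. Changes of the 9 members ran from 0.27 to 1.57. The 30 bases around each hexamer are printed with the hexamer in capitals and the strand of the gene. The hexamer began between 60 bases before and 41 after the start.
Nop2, chr6:125131811-125131840, plus strand: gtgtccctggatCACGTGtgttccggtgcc
Utp18, chr11:93885769-93885798, minus strand: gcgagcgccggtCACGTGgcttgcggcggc
Pes1, chr11:3963965-3963994, plus strand: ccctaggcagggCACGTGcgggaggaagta
Wdr43, chr17:71616220-71616249, plus strand: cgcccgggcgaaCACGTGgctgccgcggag
Tsr1, chr11:74898092-74898121, plus strand: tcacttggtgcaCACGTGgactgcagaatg
Ltv1, chr10:13193092-13193121, minus strand: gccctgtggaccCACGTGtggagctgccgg
Pno1, chr11:17211540-17211569, minus strand: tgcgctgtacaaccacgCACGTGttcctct
Utp20, chr10:88826765-88826794, minus strand: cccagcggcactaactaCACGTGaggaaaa
Mybbp1a, chr11:72441347-72441376, plus strand: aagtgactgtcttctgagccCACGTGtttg

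Several members carry snoRNAs in their introns, which are released when the host transcript is spliced. GENCODE M21 places 21 snoRNA genes of 68 to 133 bases inside 7 hosts on the same strand. Of these, 7 were listed at 0 in all libraries and 13 passed the filter. In the limma test 0 of the 13 rose, 5 fell and 8 did not pass (median log2 fold change -0.45), where 31.2% of all genes tested rose and 48.9% fell. Their hosts rose, but the difference between snoRNA and host was not tested. At an unadjusted p below 0.05 the counts were also 0 higher and 5 lower. Over all 171 snoRNA genes tested, 12 rose and 91 fell (median -0.69).

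The 3 snoRNAs below fell and carry both boxes, TGATGA (box C) near the 5′ end and CTGA (box D) near the 3′ end, which are in capitals (GRCm38, strand of the host).
Snord82, in Ncl, chr1:86356261-86356330, minus strand: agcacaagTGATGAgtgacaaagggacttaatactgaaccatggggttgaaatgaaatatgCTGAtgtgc
Snord110, in Nop56, chr2:130275506-130275573, plus strand: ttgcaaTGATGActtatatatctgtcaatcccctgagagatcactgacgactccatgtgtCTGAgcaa
Snord92, in Wdr43, chr17:71631281-71631365, plus strand: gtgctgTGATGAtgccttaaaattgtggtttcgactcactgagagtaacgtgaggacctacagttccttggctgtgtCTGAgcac

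Snord82 had 0.942, 0.000 and 0.469 RPKM in stimulated libraries and 3.49, 3.93 and 7.60 RPKM in unstimulated libraries (-2.02, limma adjusted p = 0.00106). Snord110 had 0.969, 2.17 and 3.14 RPKM stimulated and 6.74, 6.93 and 4.89 RPKM unstimulated (-1.27, limma adjusted p = 0.00462). Snord92 had 4.65, 4.78 and 2.71 RPKM stimulated and 11.1, 6.47 and 11.3 RPKM unstimulated (-1.07, limma adjusted p = 0.00695). The groups did not overlap for any of these 3, but the counts behind them were small: over all 6 libraries allelic reads numbered 2 for Snord82, 61 for Snord110 and 82 for Snord92. The other 2 that fell were Snord91a in Tsr1 (-1.19) and Gm24916 in Gnl3 (-0.78). On summed allelic counts 10 hosted snoRNAs could be tested, and 0 were higher or lower by edgeR or by DESeq2, also at an unadjusted p below 0.05. No source used here says whether reads of unspliced host transcripts were counted to them.

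**Figure D3:**
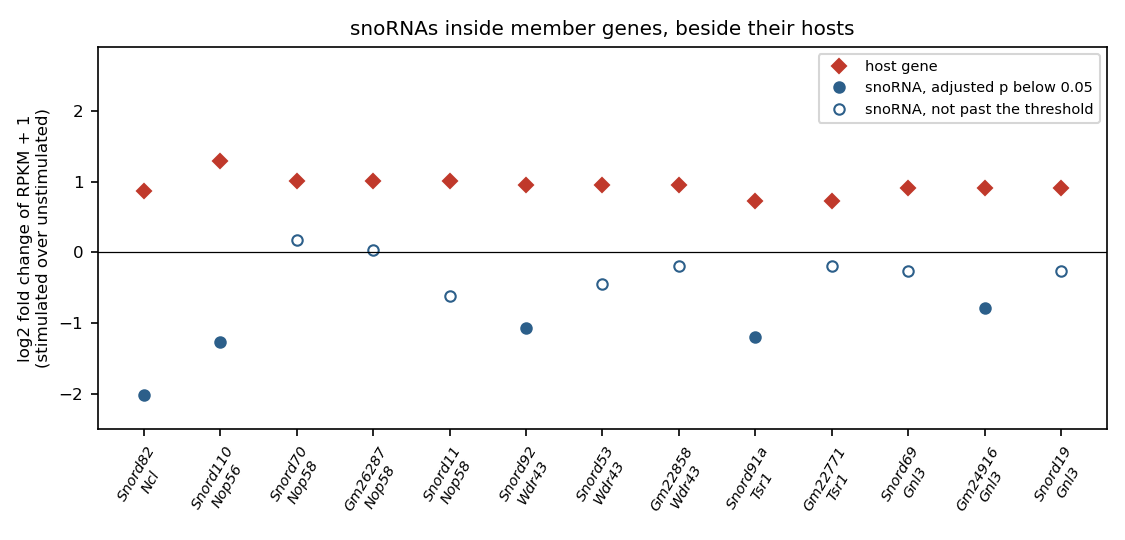
Log2 fold change of RPKM + 1 (stimulated over unstimulated) for the 13 tested snoRNAs (circles) and the host gene of each (diamonds). All hosts lie above 0, and the 5 filled circles, which passed the test, lie below 0.

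The alleles gave separate readings of the same rise. On mus reads 44 of 47 members were higher by edgeR and 0 were lower, against 35.9% of 13363 genes higher and 34.2% lower. On cast reads 44 of 45 members were higher and 0 were lower, against 36.3% of 13070 genes higher and 34.2% lower. At an unadjusted p below 0.05, and by DESeq2, 0 were lower on either allele. The members that did not pass on mus reads were Fbl (0.29, edgeR adjusted p = 0.0695), Nop10 (-0.55, adjusted p = 0.376) and Rrs1 (1.47, adjusted p = 0.422). On cast reads it was Ncl (0.12, edgeR adjusted p = 0.41).

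Allelic reads and RPKM put different sizes on some changes. The fits also differed in scaling: allelic counts had TMM factors, while log2(RPKM + 1) was taken as deposited. The part of scaling in the differences was not tested. For 44 of 47 members the log2 fold change of summed allelic reads exceeded that of RPKM, which was not counted over all genes. The median difference was 0.42, beside 0.34 over the 12127 genes in both fits. The exceptions were Nop10, Ncl (0.26 on allelic reads, 0.87 on RPKM) and Fbl (0.41 on allelic reads, 0.80 on RPKM). Ncl and Fbl passed on both measures (edgeR adjusted p = 0.0258 and 0.00682 on allelic reads), by a smaller step on allelic reads. Per 1 M allelic reads of the library, without TMM factors, cast reads of Ncl were 131 ± 21 stimulated and 143 ± 13 unstimulated. Its mus reads were 145 ± 9 and 129 ± 3. For Fbl, cast reads were 27.9 ± 2.7 and 22.7 ± 3.2, and mus reads 28.9 ± 2.5 and 27.9 ± 3.7 (SD, n = 3 each).

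The cast share of allelic reads changed for few members. Of 45 autosomal members tested by edgeR 3 passed, or 6.67%, where 12.0% of 12470 autosomal genes passed. The cast share was higher for 1 of them (6.48% of autosomal genes) and lower for 2 (5.57%). Rrp12 had cast shares of 57.01%, 60.7% and 59.7% in stimulated libraries and 53.2%, 48.3% and 50.1% in unstimulated libraries, from 4052 to 4797 and from 791 to 1028 allelic reads. Its groups did not overlap (59.1% ± 1.9 stimulated, 50.5% ± 2.5 unstimulated, SD, n = 3 each). The change of the cast to mus ratio was 0.50 on the log2 scale (edgeR adjusted p = 0.000875). In RPM, allelic reads scaled to 1 M allelic reads of the library, cast reads of Rrp12 were 155, 161 and 134 RPM stimulated and 46.0, 39.8 and 36.0 RPM unstimulated, and mus reads were 117, 105 and 90.6 RPM stimulated and 40.4, 42.6 and 35.9 RPM unstimulated. Both alleles of Rrp12 therefore rose, by 2.13 for cast and 1.64 for mus.

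Nop2 and Ncl moved the other way. Nop2 (chr6:125131909-125144753, plus strand) had cast shares of 48.3%, 45.7% and 47.5% stimulated and 53.9%, 53.9% and 55.8% unstimulated. Its groups did not overlap (-0.43, edgeR adjusted p = 0.0396). The call was lost with DESeq2 (adjusted p = 0.0909) and whenever any 1 library was left out (adjusted p = 0.0636 to 0.153), while the size of the change stayed between -0.38 and -0.46. Ncl had cast shares of 49.6%, 48.0% and 44.5% stimulated and 51.0%, 54.9% and 51.6% unstimulated (-0.30, edgeR adjusted p = 0.0187). The Ncl call was lost without stimulated replicate 3 (adjusted p = 0.135) or unstimulated replicate 2 (adjusted p = 0.115). Without stimulated replicate 3 the count of members that passed fell to 1.

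**Figure D4:**
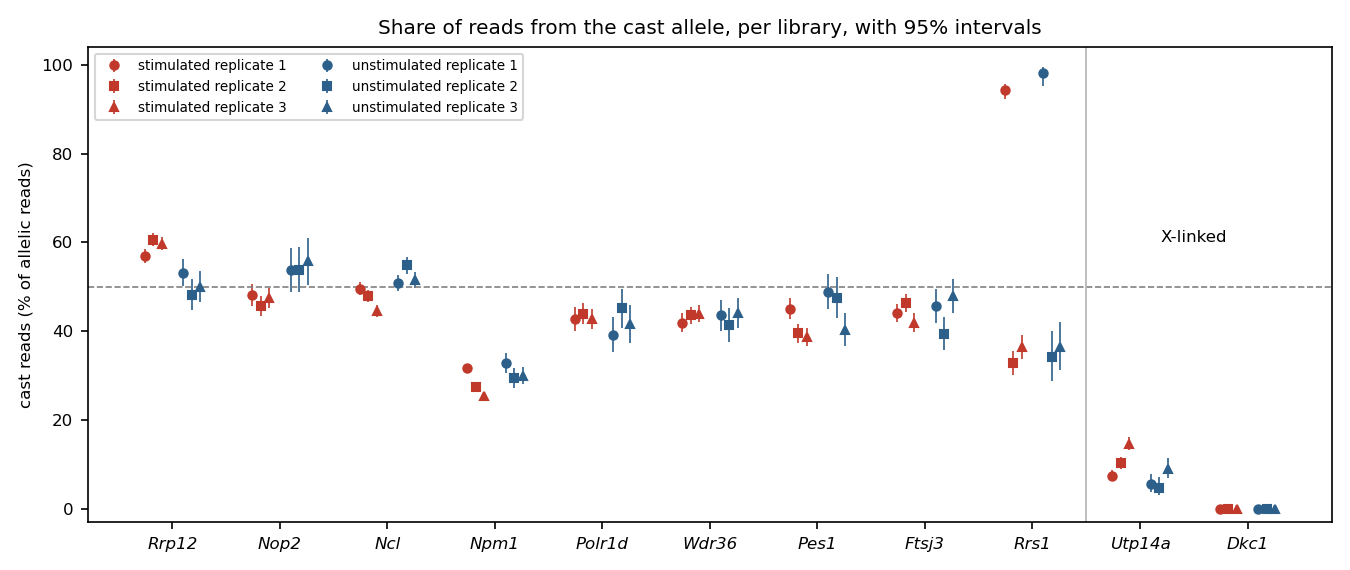
Cast reads as a percentage of allelic reads, 1 point per library with its exact 95% binomial interval, for 9 autosomal and 2 X-linked members; stimulated libraries are red and unstimulated libraries blue. Rrp12 is higher and Nop2 and Ncl are lower in stimulated libraries, Npm1 lies at 25.4% to 32.9% throughout, and replicate 1 of Rrs1 lies above 90% in both groups.

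An unequal reading of the alleles was more common than a change in it. In stimulated libraries 12 of 45 autosomal members passed, against 36.7% of autosomal genes. Of the 12, 2 had more cast reads (4.44% of members, 15.6% of autosomal genes) and 10 more mus reads (22.2% of members, 21.1% of autosomal genes). In unstimulated libraries 9 of 45 passed, against 31.5% of autosomal genes. Of the 9, 1 had more cast reads (2.22% of members, 12.4% of autosomal genes) and 8 more mus reads (17.8% of members, 19.1% of autosomal genes). Among autosomal members whose allelic reads numbered 100 or more in each of the 6 libraries, the mean share over both groups was farthest from equal parts for Npm1, with cast shares of 31.8%, 27.5% and 25.4% stimulated and 32.9%, 29.5% and 29.98% unstimulated (edgeR adjusted p = 7.78e-08 stimulated, 9.23e-07 unstimulated). All 6 Npm1 shares lay below 33%. Below that minimum of reads, Polr1c had mean cast shares of 42.6% ± 3.0 stimulated and 40.9% ± 11.7 unstimulated, and Nop10 52.4% ± 4.2 stimulated and 22.5% ± 9.5 unstimulated (SD, n = 3 each). Polr1d had 42.8%, 44.0% and 42.8% stimulated and 39.2%, 45.2% and 41.6% unstimulated. Wdr36 had 42.0%, 43.6% and 44.0% stimulated and 43.6%, 41.4% and 44.2% unstimulated. Polr1d and Wdr36 had more mus reads in every library, as did Npm1, Pes1, Ftsj3 and others such as Nolc1 and Ddx21. Pes1 had 45.1%, 39.5% and 38.8% stimulated and 48.9%, 47.6% and 40.3% unstimulated. Ftsj3 had 44.1%, 46.4% and 42.0% stimulated and 45.8%, 39.5% and 47.9% unstimulated. No source used here says how reads were assigned to the alleles, and a share away from equal parts was not tested against that step.

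Rrs1, a regulator of the 5S particle in large subunit assembly, showed a share that went with the replicate number and not with stimulation. Its cast shares were 94.2%, 32.8% and 36.5% in stimulated replicates 1, 2 and 3, and 98.1%, 34.2% and 36.6% in unstimulated replicates 1, 2 and 3. Exact 95% intervals of replicate 1 ran from 92.3% to 95.8% stimulated and from 95.2% to 99.5% unstimulated. Mus reads of Rrs1 were 2.95, 47.02 and 37.8 RPM stimulated and 0.336, 19.99 and 17.7 RPM unstimulated, and cast reads 48.2, 22.95 and 21.7 RPM stimulated and 17.2, 10.4 and 10.2 RPM unstimulated. Replicate 1 was thus lowest for mus and highest for cast in both groups. In RPKM of all reads Rrs1 had 13.1, 14.6 and 13.2 stimulated and 5.49, 6.63 and 6.92 unstimulated, with replicate 1 lowest in each group (log2 fold change 1.00, limma adjusted p = 8.44e-05).

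The neighbours of Rrs1 (chr1:9545408-9547455, plus strand) shared the pattern in part. Vcpip1 (chr1:9718622-9748382, minus strand) had cast shares of 84.7%, 43.2% and 47.4% stimulated and 85.5%, 46.1% and 39.1% unstimulated. Sgk3, the next gene shown (chr1:9798107-9900845, plus strand), had 44.3%, 35.0% and 28.1% stimulated and 58.4%, 39.2% and 44.9% unstimulated. Snhg6 (chr1:9941959-9944118, minus strand) had 62.9%, 34.4% and 36.6% stimulated and 70.7%, 51.6% and 32.9% unstimulated. Replicate 1 was the highest of each group for Vcpip1, Sgk3 and Snhg6, by less for Sgk3 than for the others. For Arfgef1 (chr1:10137571-10232670, minus strand) the shares ran from 45.3% to 47.7% stimulated and from 47.6% to 48.5% unstimulated. Of 9043 autosomal genes for which every library had 50 allelic reads or more, 19 had 1 replicate at least 30 points above both others in both groups: 8 in replicate 1, 10 in replicate 2 and 1 in replicate 3. Rrs1 was the only one of the 48 genes among them.

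**Figure D5:**
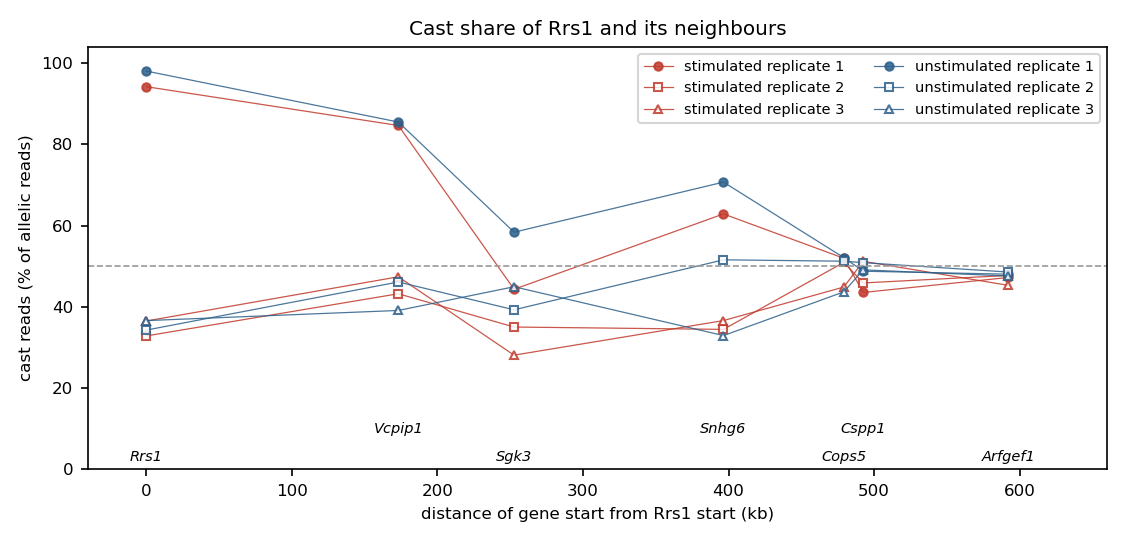
Cast reads as a percentage of allelic reads for Rrs1 and 6 neighbours, against the distance of each gene's start from that of Rrs1 in kb; circles are replicate 1, squares replicate 2 and triangles replicate 3. Both circles lie above 84% at Rrs1 and Vcpip1 and near 50% at the right, where all libraries meet.

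The set has 2 X-linked members, Dkc1 (chrX:75095854-75109777, plus strand) and Utp14a (chrX:48256862-48282453, plus strand). In this cross the X from the cast father is the one expected to be inactive where the deletion was inherited. Dkc1 had 0, 2 and 0 cast reads among 1773, 1887 and 1964 allelic reads in stimulated libraries, and 0, 0 and 0 among 415, 390 and 516 in unstimulated libraries. A count of 0 allows a share of up to 0.169% and 0.153% in stimulated replicates 1 and 3, and up to 0.723%, 0.769% and 0.581% in the unstimulated libraries. Its rise was thus read from the mus allele, with 119, 105 and 97.0 mus reads RPM stimulated and 34.9, 40.6 and 43.9 RPM unstimulated (1.67, edgeR adjusted p = 1.32e-07).

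Utp14a, in contrast, gave cast reads in every library. Its cast shares were 7.49%, 10.3% and 14.7% in stimulated libraries and 5.60%, 4.86% and 9.05% in unstimulated libraries, and the groups overlapped. Cast reads rose to 8.32, 11.6 and 17.0 RPM in stimulated libraries, against 2.35, 2.29 and 5.02 RPM in unstimulated libraries (2.17, edgeR adjusted p = 0.000267). Mus reads were 102.7, 101 and 98.8 RPM stimulated and 39.7, 44.9 and 50.5 RPM unstimulated (1.41, edgeR adjusted p = 1.75e-07). The difference between the alleles did not pass (0.75, edgeR adjusted p = 0.571), where 4.14% of 362 X-linked genes passed. With the replicate number as a block it passed (0.80, edgeR adjusted p = 0.00226), and the stimulated share was the higher one in each of the 3 pairs. Single libraries moved the value without the block: it was 0.99 without stimulated replicate 1, where it passed (edgeR adjusted p = 0.0484). It did not pass at 0.45 without stimulated replicate 3 (edgeR adjusted p = 0.587), nor in the other cases, which ran from 0.58 to 1.12.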

How the data were processed

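RNA was sequenced from 6 libraries, 3 per group, made with a stranded total RNA kit that depletes ribosomal RNA, per the labels' protocols. STAR 2.7.1a, featureCounts and the mm10 build are named per the submitters' processing notes; the annotation, the strand setting of counting and the assignment of reads to alleles are not given in any source used here. The authors deposited RPKM per gene, and whole-number counts per gene of mus and cast reads. Whether reads of a member were kept apart from those of a gene overlapping it on the other strand (Nop56 and Idh3b, Dkc1 and Mpp1, Gnl3 and Pbrm1 among others) is therefore not known.

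Positions come from GENCODE M21 on mm10 (49326 of 49671 identifiers matched). RPKM was tested with limma 3.58.1 with a trend, two-sided, on log2(RPKM + 1), for genes with at least 1 RPKM in at least 3 libraries. Fold changes on this scale understate the change of low genes. The quasi-likelihood test of edgeR 4.0.16, two-sided, was used on allelic counts: for the cast share it took the allele by group interaction beside a term for each library, in genes with 30 or more allelic reads per group, and each allele's level was tested in genes with 10 or more of its reads in 3 libraries. Levels on allelic counts were scaled with TMM factors of the summed counts. DESeq2 1.42.0 was an alternative. All p-values were adjusted by Benjamini-Hochberg over all genes tested (X-linked genes separately for shares), with 0.05 as the threshold. The steps were tested on simulated data. Intervals are exact Clopper-Pearson at 95%, and they and the limits for a count of 0 (3 reads of the total) cover counting error only.

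Members and lists were chosen with earlier results of these data known. Values per library are given for the 10 largest changes, the extremes of each role, members that did not pass, members with a changed share, the 5 autosomal shares farthest from equal parts among members whose allelic reads numbered 100 or more in each library, and X-linked members; others given so were chosen after their values were seen. The labels call the replicates biological but name no animals, so p-values measure the spread between these samples. Equal replicate numbers paired the samples in allelic data: across 9043 genes, the group-centred log2 ratio of cast over mus reads correlated at 0.28, 0.30 and 0.18. Between libraries of unequal number the values ran from -0.22 to -0.07. The main share test did not use these pairs, and the replicate block did. The alternatives were other pseudocounts, filters and scalings, count tools, a replicate block and leaving out each library.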

Additional observations from a re-analysis of the deposited data

Results flagged for a closer look

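For 3 members the effect of stimulation differed between the mus and the cast allele by the edgeR interaction test, or 6.67% of those tested on autosomes, beside 12.0% of all autosomal genes tested. The log2 change of the cast to mus ratio was 0.50 for Rrp12, -0.30 for Ncl and -0.43 for Nop2. Rrp12 had mean cast shares of 59.1% stimulated and 50.5% unstimulated, Ncl 47.4% stimulated and 52.5% unstimulated, and Nop2 47.1% stimulated and 54.5% unstimulated (n = 3 each). The Rrp12 call held under all 10 alternatives run, while those of Ncl and Nop2 were lost under 2 and 7 of them, with the Nop2 change between -0.38 and -0.46 throughout.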

How the results depend on the processing

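The 45 members that rose did so under each of the other pseudocounts, filters and scalings and whichever library was left out, and 44 of the 45 also on summed allelic counts, where Nop10 was lost. The ratio of summed RPKM, 2.38, was 1.98 from mean log2 values. The split of all genes tested, 4148 higher and 6494 lower, became 5432 higher and 5206 lower with median centring, and 5394 higher and 4878 lower with quantile normalisation. The count of 8 further biogenesis genes that fell was 2 after median centring, 1 after quantile normalisation, 2 with edgeR and 2 with DESeq2 on allelic counts, and 5 to 7 with 1 library left out. The 5 hosted snoRNAs that fell were 0 with edgeR and 0 with DESeq2 on allelic counts, where fewer could be tested, and 4 to 7 with 1 library left out. The members with a changed cast share, 3, numbered 1 to 4 with 1 library left out. For Rrs1 the change of the cast to mus ratio (-0.003) was -1.18 without stimulated replicate 1 and turned to 0.89 without stimulated replicate 2, 0.77 without stimulated replicate 3 and 1.10 without unstimulated replicate 1, with no call in any. The cause of these shifts was not tested.

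RPKM centred within groups correlated at 0.006, 0.061 and 0.091 between libraries of equal number, so the numbers were not taken as pairs there. With the replicate block 4048 genes were higher and 6416 lower, the members that rose were again 45, and the hosted snoRNAs that fell numbered 6. Among allelic results the block gave 1657 autosomal genes with a changed share against 1502, again 3 members, and changed the Utp14a call alone among the share changes of named members. Few allelic reads stood behind Nop10 (12 to 25 per library) and the hosted snoRNAs, and what they allow to be seen is limited accordingly.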
